A study of Mus musculus with 15 samples.

Results

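The interferon regulatory factors (IRFs) are transcription factors that share an N-terminal DNA-binding domain and bind interferon-stimulated response elements. Irf1, Irf2, Irf3, Irf4, Irf5, Irf7, Irf8 and Irf9 were followed here, 8 of the 19938 genes tested. They were chosen by symbol, each through the probe set that the annotation gives to that symbol alone, or the one with the highest mean where there were several. Irf1 had a second such probe set, which lay between 6.70 and 7.03 (log2 signal) on all 12 arrays. Affymetrix arrays were hybridized with RNA of mouse bone marrow cells sorted at 2 stages. Zbtb46-GFP+ c-Kit-intermediate cells carry a GFP reporter of Zbtb46, a factor that marks commitment to the classical dendritic cell (DC) lineage, and common DC progenitors (CDPs) precede them. Each stage was sorted from Batf3 KO, Id2 KO and wild-type (WT) marrow, every group with the Zbtb46-GFP reporter. The labels give Batf3 KO cells as coming from reporter mice, and Id2 KO and WT cells as coming from chimeric mice, so host type and the Batf3 genotype cannot be told apart. They give no age and do not say that replicates are separate animals, so p-values measure only the spread between these arrays.

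In DCs the family divides by role. Irf8 and Irf4 are the lineage factors: Irf8 is needed for the cDC1 subset of classical DCs and stays high in plasmacytoid DCs (pDCs), and Irf4 serves the cDC2 subset, both binding DNA with PU.1 or with Batf proteins. Irf3, Irf5 and Irf7 are latent factors that become active downstream of Toll-like and cytosolic nucleic acid receptors and switch on interferon and cytokine genes. Irf9 joins Stat2 in the complex that answers type I interferon, Irf1 activates interferon-responsive genes, and Irf2 often opposes Irf1 at the same sites. The arrays measure RNA and not the activation of these proteins.

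Of 15 arrays, the 3 Zbtb46-GFP+ arrays numbered replicate 1 had median signals of only 23.8 to 24.1, where the remaining 12 had 100.8 to 112.1, and 15586 probe sets (54.0%) were identical among the 3. The results come from the 12 arrays, 2 per group, and the 3 arrays are given apart. Within the 12 arrays, each group held 1 array with a higher and 1 with a lower 75th percentile of log2 signal (8.53 to 8.68 and 8.35 to 8.47), and differences within each of these sets of 6 arrays are given beside the main results. Each targeted gene was lower in its knockout than in WT in Zbtb46-GFP+ cells. In Id2 KO, Id2 was still higher in these cells than in CDPs (log2 difference 2.09, limma adjusted p = 0.00259). Batf3 was 6.89 and 7.32 (log2 signal) in Batf3 KO, against 9.99 and 9.85 in WT, and Id2 was 8.39 and 8.82 in Id2 KO, against 12 and 11.47 in WT. In CDPs, where the WT signal was low, Batf3 was 6.96 and 7.25 in Batf3 KO against 7.12 and 7.15 in WT, and Id2 was 7.08 and 5.96 in Id2 KO against 7.68 and 7.40 in WT, neither called. Kit was higher in Zbtb46-GFP+ cells than in CDPs by 1.39 in Batf3 KO (limma adjusted p = 0.000295), 0.78 in Id2 KO (adjusted p = 0.0104) and 1.5 in WT (adjusted p = 0.000102) on the log2 scale. Csf1r, like Kit and Flt3 a CDP marker, was lower, with differences of -1.50 (adjusted p = 0.00188), -0.85 (adjusted p = 0.0436) and -2.03 (adjusted p = 0.000169). Flt3 differed by -0.04, 0.32 and 0.11 (adjusted p = 0.978, 0.751 and 0.866). Zbtb46 was lower in Batf3 KO and Id2 KO than in WT Zbtb46-GFP+ cells, with log2 differences of -1.08 (limma adjusted p = 0.00713) and -1.06 (adjusted p = 0.00336). Against CDPs it was called higher only in WT (1.08, adjusted p = 0.000636). The stage difference was 0.15 in Batf3 KO (adjusted p = 0.739) and 0.20 in Id2 KO (adjusted p = 0.656). Xist, transcribed from the inactive X chromosome of females, differed by -6.61 in Batf3 KO and -6.53 in Id2 KO against WT, so the sex this marks and the genotype cannot be told apart, and all 8 IRF genes are on autosomes.

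The proximal promoters of 5 members are shown as 250 bases ending just before the RefSeq transcription start (GRCm38.p6), because Irf2, Irf4, Irf5 and Irf7 were called higher in Zbtb46-GFP+ cells in all 3 genotypes and Irf8 was not. These are Irf2 at chr8:46739495-46739744 on the plus strand, Irf4 at chr13:30748983-30749232 on the plus strand, Irf5 at chr6:29526375-29526624 on the plus strand, Irf7 at chr7:141266425-141266674 on the minus strand and Irf8 at chr8:120736108-120736357 on the plus strand, the first of its 2 windows. Capitals mark matches to the motifs searched other than the E-box.
Irf2: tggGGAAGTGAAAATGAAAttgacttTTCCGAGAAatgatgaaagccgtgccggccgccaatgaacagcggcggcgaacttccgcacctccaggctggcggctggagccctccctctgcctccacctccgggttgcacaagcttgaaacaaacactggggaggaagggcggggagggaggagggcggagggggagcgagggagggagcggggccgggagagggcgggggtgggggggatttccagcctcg
Irf4: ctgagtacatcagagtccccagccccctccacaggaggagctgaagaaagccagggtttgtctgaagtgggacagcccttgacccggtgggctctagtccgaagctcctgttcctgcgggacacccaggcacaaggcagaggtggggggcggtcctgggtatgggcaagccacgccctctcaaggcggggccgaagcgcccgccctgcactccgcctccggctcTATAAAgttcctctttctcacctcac
Irf5: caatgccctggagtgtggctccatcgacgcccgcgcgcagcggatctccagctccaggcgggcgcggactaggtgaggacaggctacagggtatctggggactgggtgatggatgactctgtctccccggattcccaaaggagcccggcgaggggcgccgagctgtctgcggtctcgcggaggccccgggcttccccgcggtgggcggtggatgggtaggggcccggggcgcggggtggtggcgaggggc
Irf7: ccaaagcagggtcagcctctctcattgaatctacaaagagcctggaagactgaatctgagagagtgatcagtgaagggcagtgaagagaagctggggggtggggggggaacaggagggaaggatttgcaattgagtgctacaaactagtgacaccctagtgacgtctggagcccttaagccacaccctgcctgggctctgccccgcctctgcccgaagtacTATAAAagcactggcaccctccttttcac
Irf8: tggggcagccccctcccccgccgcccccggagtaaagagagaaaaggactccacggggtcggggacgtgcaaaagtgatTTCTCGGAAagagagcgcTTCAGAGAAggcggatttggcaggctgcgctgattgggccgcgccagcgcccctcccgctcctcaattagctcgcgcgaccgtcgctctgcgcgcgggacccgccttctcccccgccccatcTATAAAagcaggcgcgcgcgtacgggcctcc

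The motifs, searched on both strands, were the interferon-stimulated response element core (GAAA, any 2 bases, GAAA), the ETS-IRF composite element (GGAA, any 2 bases, GAAA), the STAT-binding element TTCNNNGAA, the AP-1 site TGANTCA, the E-box CANNTG and the TATA box TATAAA. All 8 members matched a window by symbol, with 11 windows in all. Irf2 held GGAAGTGAAA and GAAAATGAAA in overlapping positions, the composite element starting at -247 and the response element at -241, and TTCCGAGAA at -224. Over the 32851 windows of the RefSeq table, 3.0% held the response element core, 2.3% the composite element and 7.0% the STAT element. Irf8 held TTCTCGGAA at -171 and TTCAGAGAA at -153, and Irf1 held TTCCCCGAA at -90 in its first window. A TATA box lay at -26 in Irf4, -29 in Irf7 and -31 in Irf8, against 12.4% of all windows with one. Irf5 held none of the 6 motifs, Irf3 and Irf9 held E-boxes only, which 66.2% of windows hold, and no member held the AP-1 site, against 6.7% of windows. These matches describe letters and were not tested for binding.

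Irf4 and Irf7 had the widest ranges of the 8 members over the 6 groups. Group means spanned 3.59 for Irf4, 2.86 for Irf7, 1.91 for Irf5, 0.95 for Irf2 and 0.68 for Irf9 (log2 signal), and 0.30 for Irf1, 0.22 for Irf8 and 0.15 for Irf3. For Irf2, Irf4, Irf5, Irf7 and Irf9, all 3 Zbtb46-GFP+ groups had higher means than all 3 CDP groups. For Irf1, Irf3 and Irf8, every pair of neighbours in the order of the 6 means overlapped in their arrays.

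**Figure D1:**
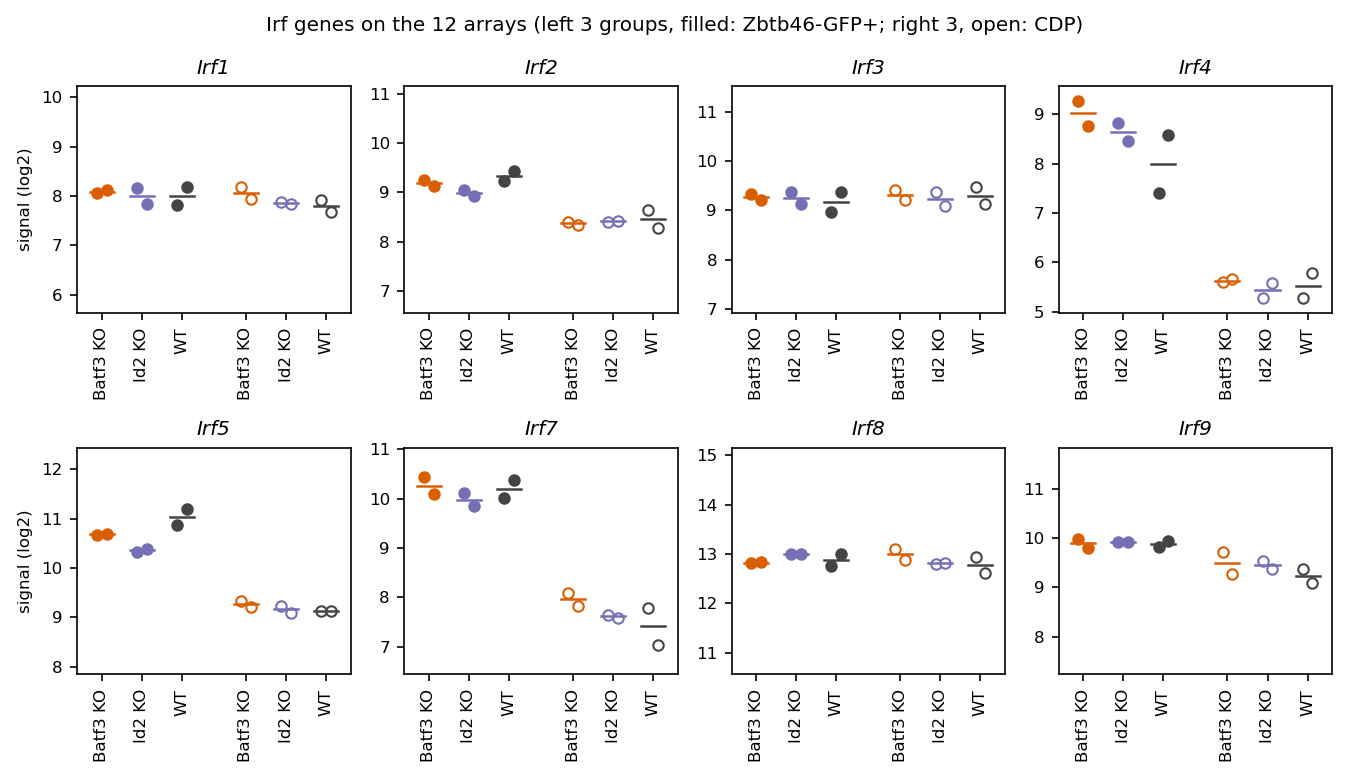
Log2 signal of each of the 8 IRF genes on the 12 arrays, with Zbtb46-GFP+ groups (filled) left of CDP groups (open) and WT last in each stage. Points are single arrays, lines are group means, and every panel covers an equal span of log2 signal around its own range, since levels of different probe sets are not compared. Irf4, Irf5 and Irf7 stand clearly higher in the filled groups, and the group means of Irf1, Irf3 and Irf8 span 0.30 at most.

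The first question was which IRF genes differ between Zbtb46-GFP+ cells and CDPs. In Batf3 KO, 4 of the 8 members were called higher in Zbtb46-GFP+ cells and 0 lower (limma, adjusted p under 0.05 over all genes), where 3.87% of all genes were called higher, 3.32% lower and 7.18% in either direction. In Id2 KO, 4 members were again called higher and 0 lower, where the shares of all genes were 3.84%, 2.98% and 6.82%. In WT, 5 were called higher and 0 lower, where the shares were 4.71%, 6.38% and 11.1%. The median log2 difference of the 8 members was 0.60 in Batf3 KO, 0.51 in Id2 KO and 0.76 in WT, beside medians over all genes of 0.01, 0.01 and 0.03. Irf2, Irf4, Irf5 and Irf7 were called in each genotype, and Irf9 in WT.

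Irf4, the lineage factor of cDC2 cells, was low in every CDP array and high in every Zbtb46-GFP+ array. It was 9.28 and 8.76 in Batf3 KO, 8.83 and 8.46 in Id2 KO, against 7.41 and 8.59 in WT Zbtb46-GFP+ cells (log2 signal). In CDPs it was 5.59 and 5.66 in Batf3 KO, 5.28 and 5.58 in Id2 KO, against 5.27 and 5.78 in WT. These CDP signals were not shown to be above background, since they lay at the level of Xist on the 8 knockout arrays, where it read 5.06 to 5.71. The true folds could therefore be larger than the estimates, whose intervals cover only the spread between arrays. No Zbtb46-GFP+ array overlapped with a CDP array, and the lower WT Zbtb46-GFP+ array lay below every knockout array of that stage. Irf4 was an estimated 10.5-fold higher in Zbtb46-GFP+ cells in Batf3 KO (95% interval 6.33 to 17.5, log2 3.39, limma adjusted p = 0.000153). The estimate was 9.27-fold in Id2 KO (5.58 to 15.4, log2 3.21, adjusted p = 0.000277). In WT the estimate was 5.56-fold (3.35 to 9.23, log2 2.48, adjusted p = 0.000665). Each log2 difference had an SE of 0.33. The WT difference was 3.32 within the 6 arrays of higher signal and 1.63 within the 6 of lower signal, and it lay between 1.89 and 3.06 when any 1 WT array was left out, with the call kept. In bulk cells, a change in the share of cells that express a gene and a change in RNA per cell cannot be told apart.

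Irf8, the lineage factor of cDC1 cells, was called in none of the 10 comparisons, and its 6 group means lay within 0.22 of each other. It was 12.82 and 12.83 in Batf3 KO, 12.99 and 13 in Id2 KO, against 12.76 and 13 in WT Zbtb46-GFP+ cells (log2 signal). In CDPs it was 13.10 and 12.88 in Batf3 KO, 12.80 and 12.82 in Id2 KO, against 12.93 and 12.62 in WT. The stages overlapped in WT. Both Zbtb46-GFP+ arrays lay below both CDP arrays in Batf3 KO and above them in Id2 KO, but neither difference was called. The share of all genes whose stages did not overlap was not computed, so no pattern is read from this. The Zbtb46-GFP+ signal was 0.892-fold that of CDPs in Batf3 KO (95% interval 0.715 to 1.11, adjusted p = 0.714), 1.14-fold in Id2 KO (0.912 to 1.42, adjusted p = 0.696) and 1.07-fold in WT (0.859 to 1.34, adjusted p = 0.753). The probe set's mean was at the 99.7th percentile of all genes, and whether arrays compress differences at such signals was not tested.

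Irf7, the interferon-inducible latent factor of type I interferon production, was higher in Zbtb46-GFP+ cells in every genotype. It was 10.44 and 10.09 in Batf3 KO, 10.11 and 9.86 in Id2 KO, against 10.02 and 10.38 in WT Zbtb46-GFP+ cells (log2 signal). In CDPs it was 8.09 and 7.83 in Batf3 KO, 7.64 and 7.59 in Id2 KO, against 7.78 and 7.04 in WT. The stages were apart by more than 1 log2 unit in every array, and the 3 genotypes of Zbtb46-GFP+ cells overlapped. The difference was 4.96-fold in Batf3 KO (log2 2.31, adjusted p = 0.000178), 5.17-fold in Id2 KO (2.37, adjusted p = 0.000195) and 6.94-fold in WT (2.79, adjusted p = 2.63e-05), each with an SE of 0.23. Within the sets of higher and lower signal the WT differences were 2.60 and 2.99.

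Irf5, the latent factor of inflammatory cytokine genes downstream of Myd88, was higher in Zbtb46-GFP+ cells in every genotype too. It was 10.68 and 10.70 in Batf3 KO, 10.33 and 10.39 in Id2 KO, against 10.88 and 11.20 in WT Zbtb46-GFP+ cells (log2 signal). In CDPs it was 9.33 and 9.20 in Batf3 KO, 9.23 and 9.09 in Id2 KO, against 9.13 and 9.12 in WT. No 2 genotypes of Zbtb46-GFP+ cells overlapped, with Id2 KO lowest and WT highest, but only Id2 KO against WT was called. Against WT, 24.3% (Batf3 KO) and 35.2% (Id2 KO) of all genes did not overlap either. The share between the knockouts was not computed. The stage difference was 2.68-fold in Batf3 KO (log2 1.42, adjusted p = 0.000132), 2.3-fold in Id2 KO (1.2, adjusted p = 0.000489) and 3.77-fold in WT (1.91, adjusted p = 9.1e-06), each with an SE of 0.14. Irf3, the constitutive latent factor of the first wave of interferon, lay between 8.97 and 9.47 on the 12 arrays, its stages overlapped in every genotype, and its stage differences were -0.04 in Batf3 KO, 0.02 in Id2 KO and -0.13 in WT.

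Irf2 and Irf9 showed smaller differences. Irf2 was 9.25 and 9.13 in Batf3 KO, 9.05 and 8.92 in Id2 KO, against 9.23 and 9.44 in WT Zbtb46-GFP+ cells (log2 signal), and every CDP array was between 8.28 and 8.65. It was 1.75-fold higher in Zbtb46-GFP+ cells in Batf3 KO (adjusted p = 0.00663), 1.49-fold in Id2 KO (adjusted p = 0.041) and 1.83-fold in WT (adjusted p = 0.00299). The Id2 KO call was lost when any 1 of the 4 Id2 KO arrays was left out, at differences of 0.51 to 0.64 and adjusted p of 0.113 to 0.274, and the Batf3 KO call was lost without CDP replicate 2 (adjusted p = 0.0548) or Zbtb46-GFP+ replicate 2 (adjusted p = 0.0585). Irf9 was 9.98 and 9.80 in Batf3 KO, 9.91 and 9.92 in Id2 KO, against 9.81 and 9.94 in WT Zbtb46-GFP+ cells. In CDPs Irf9 was 9.71 and 9.27 in Batf3 KO, 9.54 and 9.37 in Id2 KO, against 9.38 and 9.09 in WT. These stages did not overlap in any genotype, which is a weak criterion with 2 arrays per group. Against WT in Zbtb46-GFP+ cells, groups did not overlap for 24.3% (Batf3 KO) and 35.2% (Id2 KO) of all genes. The share for the stages was not computed. The stage difference of Irf9 passed the limma test in WT (1.56-fold, adjusted p = 0.0316). It did not in Batf3 KO (1.32-fold, adjusted p = 0.236) or Id2 KO (1.37-fold, adjusted p = 0.169). The WT call was lost without WT CDP replicate 2 (log2 difference 0.50), WT Zbtb46-GFP+ replicate 2 (0.71) or WT Zbtb46-GFP+ replicate 3 (0.58). With the array set as a block, Irf9 was also called in Batf3 KO (limma adjusted p = 0.0316) and Id2 KO (adjusted p = 0.0166). The sets were defined from these same signals. This block raised the calls over all genes from 1432 to 3487 in Batf3 KO and from 1359 to 3234 in Id2 KO. Irf1 lay between 7.67 and 8.19 on the 12 arrays, with stage differences of 0.03 in Batf3 KO, 0.14 in Id2 KO and 0.21 in WT, none called.

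**Figure D2:**
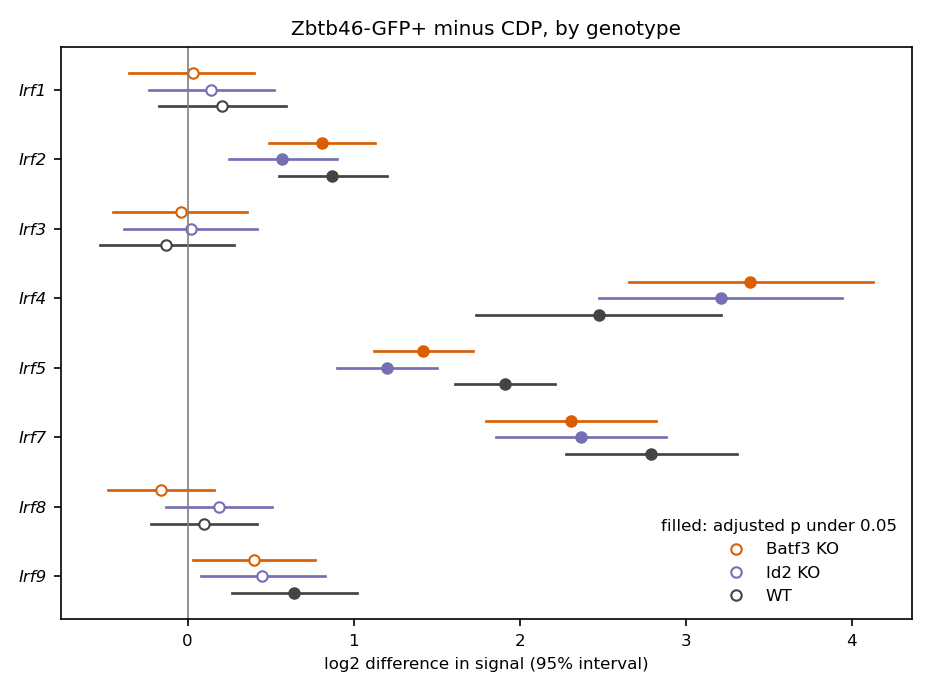
Log2 difference of Zbtb46-GFP+ cells minus CDPs for each IRF gene, by genotype, with 95% intervals from the limma fit on 12 arrays. Filled points passed an adjusted p under 0.05: Irf2, Irf4, Irf5 and Irf7 in all 3 genotypes and Irf9 in WT.

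Whether the stage difference itself depended on genotype was tested as an interaction. None of the 8 members was called for Batf3 KO or for Id2 KO in the fit without a block, where 0.0953% and 0.321% of all genes were called in either direction, and at an unadjusted p under 0.05 there was 1 member in each, where the shares of all genes were 1.92% and 4.81%. That member was Irf5, with interactions of -0.49 in Batf3 KO (95% interval -0.92 to -0.07, adjusted p = 1) and -0.72 in Id2 KO (-1.14 to -0.29, adjusted p = 0.269). With the array set as a block the Id2 KO interaction of Irf5 was called (-0.72, limma adjusted p = 0.0421). The sets were defined from these same signals, and this block raised the calls over all genes from 64 to 373. The call is therefore not taken as further support. For Irf4 the interaction was 0.92 in Batf3 KO (-0.11 to 1.95) and 0.74 in Id2 KO (-0.30 to 1.77). For Irf8 it was -0.26 (-0.72 to 0.19) and 0.09 (-0.37 to 0.54). The Irf4 interactions were not called, and their sizes rest on CDP signals not shown to be above background.

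The second question was which IRF genes differ between each knockout and WT within a stage. In Zbtb46-GFP+ cells, Batf3 KO differed from WT in 0 of the 8 members, where 0.336% of all genes were called in either direction, 0.11% higher and 0.226% lower. At an unadjusted p under 0.05 there were 2 members, Irf4 and Irf5, where the share of all genes was 4.45%. These were also the 2 members whose groups did not overlap, where the share of all genes was 24.3%. Irf4, with 9.28 and 8.76 in Batf3 KO against 7.41 and 8.59 in WT, had a log2 difference of 1.02 (95% interval 0.29 to 1.75, adjusted p = 0.612), and 0.69 and 1.34 within the sets of higher and lower signal. Irf5 had a difference of -0.35 (-0.65 to -0.05, adjusted p = 0.874). Irf8, whose expression Batf3 maintains in maturing cDC1 cells, differed by -0.05, with an interval for the fold of 0.773 to 1.2.

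In Id2 KO Zbtb46-GFP+ cells, 1 of the 8 members was called lower than in WT and 0 higher, where 0.717% of all genes were called lower, 1.09% higher and 1.81% in either direction. At an unadjusted p under 0.05 there were 2 members, Irf2 and Irf5, where the share of all genes was 9.29%. The called member was Irf5, at 10.33 and 10.39 in Id2 KO against 10.88 and 11.20 in WT, a log2 difference of -0.68 (SE 0.14, 95% interval -0.98 to -0.38, limma adjusted p = 0.0286). The difference was -0.88 within the 6 arrays of higher signal and -0.49 within the 6 of lower signal. The call was lost without WT replicate 3 (-0.52, adjusted p = 0.171), Id2 KO replicate 2 (-0.65, adjusted p = 0.262) or Id2 KO replicate 3 (-0.71, adjusted p = 0.168), and was kept without WT replicate 2. Irf2 had -0.35 (-0.67 to -0.02, adjusted p = 0.472) with groups that did not overlap, as for 2 of the 8 members (Irf2 and Irf5) and 35.2% of all genes, and Irf4 had 0.64 (-0.09 to 1.37, adjusted p = 0.659) with groups that did. Irf8 differed by 0.12, with an interval for the fold of 0.87 to 1.35, and Irf7 by -0.22. Irf1, Irf3 and Irf9 differed by 0.00, 0.07 and 0.04.

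Id2 KO and Batf3 KO Zbtb46-GFP+ cells differed from each other in 0 of the 8 members, where 0.592% of all genes were called, with 1 member at an unadjusted p under 0.05, beside 5.43% of all genes. That was Irf5, at 10.33 and 10.39 in Id2 KO against 10.68 and 10.70 in Batf3 KO, a difference of -0.33 (-0.63 to -0.03, adjusted p = 0.77). Irf4 differed by -0.37 (-1.11 to 0.36) and Irf8 by 0.17 (-0.15 to 0.49). In CDPs, 0 members were called in Batf3 KO against WT (background 0.0502% of all genes) and 0 in Id2 KO against WT (0.0251%), with 1 and 0 members at an unadjusted p under 0.05, beside 1.29% and 0.632% of all genes. The 1 was Irf7, at 8.09 and 7.83 in Batf3 KO against 7.78 and 7.04 in WT (log2 difference 0.55, 95% interval 0.04 to 1.06, adjusted p = 1). Irf8 in CDPs differed by 0.21 (-0.11 to 0.53) in Batf3 KO and by 0.03 (-0.29 to 0.35) in Id2 KO against WT.

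The 3 Zbtb46-GFP+ replicate 1 arrays, on their own scale, gave single values with no test. Irf5 was 7.48 in Batf3 KO, 6.84 in Id2 KO and 7.48 in WT, and the identical values of Batf3 KO and WT carry no information on how these differ. The Id2 KO difference from that shared value was -0.63, which is not taken as support for the call on the other arrays. Irf4 was 4.89 in Batf3 KO and 4.81 in Id2 KO, against 4.44 in WT, where the median log2 signals of these arrays were 4.59, 4.59 and 4.57. Irf7 was 6.05 in Batf3 KO and 5.02 in Id2 KO, against 5.25 in WT, and the Batf3 KO difference of 0.79 stood beside 0.07 on the 12 arrays. Irf2 was 8.10 in Batf3 KO and 8.05 in Id2 KO, against 7.95 in WT, where the other arrays had lower means in both knockouts. Irf3, Irf8 and Irf9 had the same value on all 3 arrays (6.11, 8.72 and 6.44), so these arrays carry no genotype information for them.

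**Figure D3:**
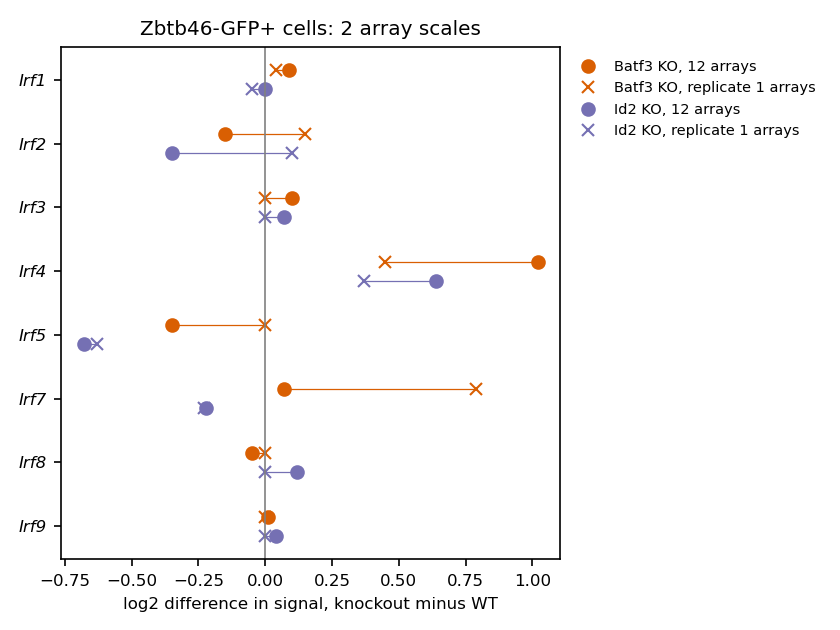
Log2 difference of each knockout minus WT in Zbtb46-GFP+ cells, from the 12-array fit (circles) and between the single replicate 1 arrays (crosses), for the 8 IRF genes. Irf5 in Id2 KO lies at -0.68 and -0.63 in these 2 sets, the cross being measured from a value that WT and Batf3 KO share, and Irf3, Irf8 and Irf9 have crosses at 0 because their values are identical.

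The genes around the family were counted from lists written by function. For each stage count below, the Batf3 KO shares of all genes were 3.87% higher and 3.32% lower, the Id2 KO shares 3.84% and 2.98%, and the WT shares 4.71% and 6.38%, with medians over all genes of 0.01, 0.01 and 0.03. For each count against WT in Zbtb46-GFP+ cells, the Batf3 KO shares were 0.11% and 0.226%, and the Id2 KO shares 1.09% and 0.717%, with medians of 0.01 and -0.02. Of 21 measured genes of interferon induction (Toll-like and cytosolic receptors and their kinases), 8 were higher and 1 lower in Zbtb46-GFP+ cells than in CDPs in Batf3 KO, 4 and 1 in Id2 KO, against 9 and 1 in WT. The median log2 difference of the list was 0.15, 0.25 and 0.18. Tlr3, the receptor for double-stranded RNA that marks cDC1 cells, was higher by an estimated 3.79 in Batf3 KO (limma adjusted p = 7e-08). The estimates were 2.21 in Id2 KO (adjusted p = 9.4e-06) and 6.11 in WT (adjusted p = 2.02e-09). The Tlr3 signals in CDPs, 5.43 to 5.68, lay within the range of Xist on the knockout arrays. They were not shown to be above background, so the true differences could be larger. Ddx58, the cytosolic RNA sensor RIG-I, was higher by 2.06, 1.88 and 1.47, and Tlr4, the lipopolysaccharide receptor, by 1.82, 1.09 and 1.69. Against WT in Zbtb46-GFP+ cells, Tlr3 was the 1 member of this list called in either knockout, and it was lower in both. The log2 differences were -2.23 in Batf3 KO (limma adjusted p = 1.39e-05) and -3.78 in Id2 KO (adjusted p = 1.78e-07). The stage difference of Tlr3 was also smaller in each knockout than in WT, with interactions of -2.32 (adjusted p = 0.000941) and -3.90 (adjusted p = 1.06e-05).

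Among 11 measured interferon ligands and receptors, Ifngr1, the ligand-binding chain of the interferon gamma receptor, was the 1 called gene. It was higher in Zbtb46-GFP+ cells than in CDPs by 1.19 in Batf3 KO (adjusted p = 0.00504) and 1.99 in WT (adjusted p = 0.000116), with 0 genes of the list called in Id2 KO. It was lower in Id2 KO than in WT Zbtb46-GFP+ cells by a log2 difference of -1.44 (adjusted p = 0.00469), with an interaction of -1.65 (adjusted p = 0.0488). The type I receptor chains Ifnar1 and Ifnar2 had stage differences of 0.13 and -0.34 in WT, neither called. Of 11 measured genes of the JAK-STAT relay, 3 were higher in Batf3 KO, 3 in Id2 KO and 4 in WT Zbtb46-GFP+ cells than in CDPs, with 0 lower. Jak2, a kinase of the interferon gamma receptor, was higher by 1.27, 1.77 and 1.52, and Usp18, a brake on type I interferon signalling, by 1.79, 1.22 and 1.65. Stat2, which pairs with Irf9, was higher by 1.03 in WT (adjusted p = 0.0263) and had differences of 0.91 and 0.86 in Batf3 KO and Id2 KO that did not pass the test. No gene of the relay was called in either knockout against WT.

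Of 27 measured interferon-stimulated genes, 13 were higher and 1 lower in Zbtb46-GFP+ cells than in CDPs in Batf3 KO, 8 and 1 in Id2 KO, against 15 and 1 in WT, with medians of 0.84, 0.64 and 0.89 on the log2 scale. Ciita, the master regulator of MHC class II genes, was higher by an estimated 4.02, 3.58 and 4.6. Its CDP signals, 5.94 to 6.16, lay below the median of the array medians, 6.75. They were not shown to be above background, so the true differences could be larger. Oasl2, of the oligoadenylate synthetase family, was higher by 2.40, 1.65 and 1.65, and Gbp3, a guanylate-binding protein, was lower with differences of -1.64, -1.72 and -2.31. In Zbtb46-GFP+ cells 0 of the 27 were called in Batf3 KO against WT (median 0.31). In Id2 KO against WT, 1 was higher, Bst2 (log2 difference 1.5, adjusted p = 0.00847), also a pDC marker, and 1 was lower, Ciita (-0.97, adjusted p = 0.018), with a median of -0.05.

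Of 17 measured partners that bind DNA with IRFs, 4 were higher and 0 lower in Zbtb46-GFP+ cells than in CDPs in Id2 KO, and 3 and 3 in WT. In Batf3 KO, where Batf3 itself was left out, 2 of 16 were higher and 1 was lower. The lower ones were Runx1 (-1.15), the E protein gene Tcf3 (-0.84) and the ETS factor gene Etv6 (-0.44) in WT, and Tcf3 (-0.74) in Batf3 KO. Batf3, the AP-1 factor that joins Irf8, was higher by 1.24 in Id2 KO and 2.79 in WT. Nfatc2, a calcium-responsive factor, was higher by 1.56 in Batf3 KO, 1.33 in Id2 KO and 1.59 in WT. Spib, an ETS factor of pDCs, was higher in Id2 KO by 3.08 (adjusted p = 0.00424), and had 1.5 in Batf3 KO (adjusted p = 0.125) and 1.42 in WT (adjusted p = 0.115). Spi1, which encodes PU.1, had differences of -0.04, 0.63 and 0.04, none called. In Zbtb46-GFP+ cells, Id2 KO differed from WT in Batf3 (-1.63, adjusted p = 0.000963), Runx1 (1.22, adjusted p = 0.0146) and Ikzf1 (0.60, adjusted p = 0.0443). None of 16 partners was called in Batf3 KO against WT. Of 10 measured proteins that bind or modify IRFs, 1 was higher in Zbtb46-GFP+ cells in each genotype, the ubiquitin-editing enzyme gene Tnfaip3, and 2 were lower in WT, Trim28 (-0.67) and Irf2bp2 (-0.46).

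Genes linked to Irf8 and Irf4 in mature subsets were set beside the 2 lineage factors. Some members of these lists were chosen with their values on these arrays known, so their direction is not independent evidence. Without the targeted gene, 8 of 13 cDC1 genes were lower and 0 higher in Batf3 KO than in WT Zbtb46-GFP+ cells (median -1.49, all genes 0.01), and 11 were lower and 1 higher in Id2 KO (median -2.62, all genes -0.02). Xcr1, the cDC1 chemokine receptor, differed by -3.22 in Id2 KO and by -3.23 in Batf3 KO. Gcsam differed by -3.37 and -3.63 in these knockouts. The gene called higher in Id2 KO was Nfil3, a factor upstream of Id2 in the cDC1 lineage (2.77, adjusted p = 0.000385). On these same arrays Irf8 differed from WT by -0.05 and 0.12. Of 12 cDC2 genes, 0 were called in Batf3 KO against WT and 1 was higher in Id2 KO, Zeb2 (1.32, limma adjusted p = 0.0443). Zeb2 is also on the pDC list, so its call is not particular to cDC2 genes. The Irf4 differences of 1.02 and 0.64 were not called. Across the stages, 3 of the 12 were higher and 0 lower in each knockout, and 5 and 1 in WT. The list medians were 0.53 in Batf3 KO, 0.24 in Id2 KO and 0.45 in WT. The largest rise was that of Cd209a, a lectin of cDC2 cells, by 3.96 in Batf3 KO, 3.58 in Id2 KO and 3.50 in WT. Zeb2 was the lower gene in WT (-1.64).

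**Figure D4:**
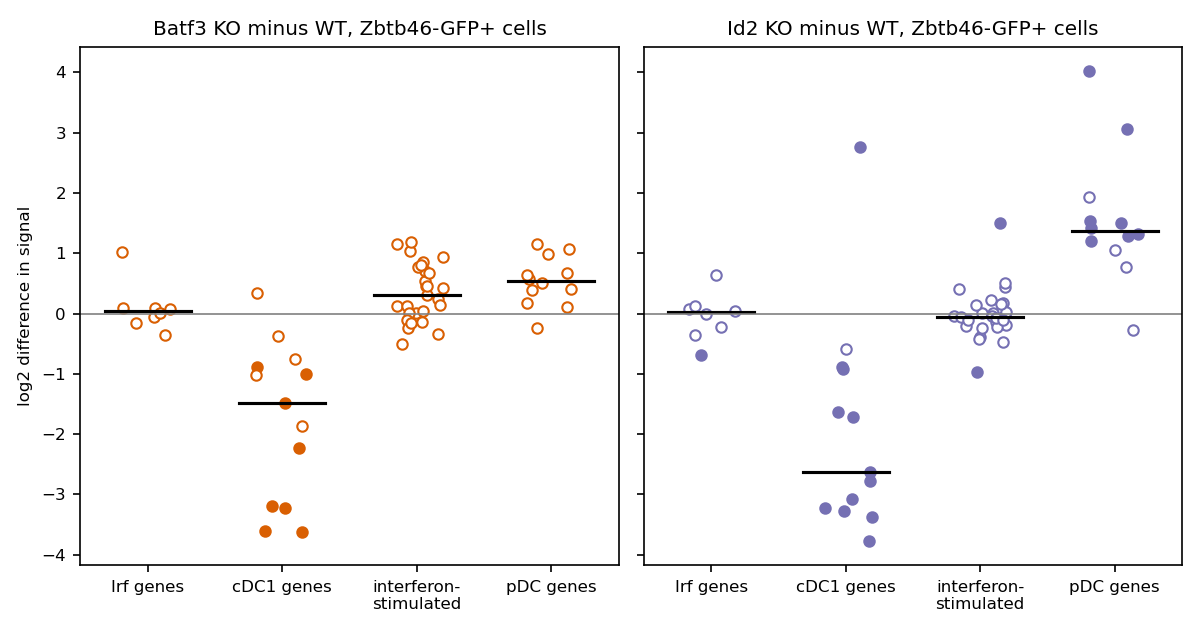
Log2 differences from WT in Zbtb46-GFP+ cells for Batf3 KO (left) and Id2 KO (right), for the 8 IRF genes, the cDC1 list without the targeted gene, the interferon-stimulated genes and the pDC genes. Each point is a gene, filled where the adjusted p is under 0.05, and bars are list medians. The cDC1 medians lie at -1.49 and -2.62, and 1 IRF gene is filled, Irf5 in Id2 KO.

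Markers of other cell types that the sort could hold also differed between the groups in which Irf5 was called. Of 12 pDC genes, 8 were higher and 0 lower in Id2 KO than in WT Zbtb46-GFP+ cells (median 1.37), among them Ly6d (4.03) and Siglech (3.06), and the mean over the list was 9.69 to 9.93 per array in Id2 KO, against 7.91 to 8.56 in WT. In Batf3 KO 0 pDC genes were called (median 0.55), with list means of 8.51 to 9.04. Of 14 neutrophil and granule genes, 5 were higher in Id2 KO and 2 in Batf3 KO than in WT, with 0 lower, and list means were 9.67 to 9.88 in Batf3 KO, 10.32 to 10.34 in Id2 KO and 8.79 to 9.17 in WT. Of 10 monocyte and macrophage genes, 3 were higher and 1 lower in Id2 KO, and 2 were higher and 0 lower in Batf3 KO. No B-lineage or erythroid and megakaryocyte gene was called in either knockout against WT, and 1 of 11 T, NK and innate lymphoid genes was higher in Id2 KO. The part of these cells in the Irf5 difference was not tested. Kit, by which the cells were sorted, was also lower in Id2 KO than in WT Zbtb46-GFP+ cells (log2 difference -0.88, adjusted p = 0.0131) and than in Batf3 KO (-0.91, adjusted p = 0.0254). Across the stages, beside the higher Irf2, Irf4, Irf5 and Irf7, 1 pDC gene was higher and 1 lower in Batf3 KO, 8 and 1 in Id2 KO (median 1.09), and 1 and 2 in WT. Of the neutrophil and granule genes, 5 were higher and 3 lower in each knockout, and 0 were higher and 6 lower in WT. Their part in the stage differences was not tested.

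The genes most like Irf4, Irf5 and Irf7 over the 12 arrays were found by the smallest root-mean-square difference of log2 signal, each gene centred on its own mean. The 12 arrays share stage and genotype, so this describes the pattern only. For Irf4 they were Ccr9 (0.38), a chemokine receptor of pDCs, Il13ra1 (0.41), a receptor chain for interleukin 13, Cldn1 (0.41), a tight junction protein, Ddr1 (0.44), a collagen receptor, and Klri1 (0.46). For Irf5 they were Rab11fip1 (0.15), a partner of Rab11 in endosome recycling, the kinase gene Map3k9 (0.17), the exchange factor gene Dock5 (0.17), Nfatc2 (0.18) and Tlr4 (0.18). For Irf7 they were Srgap3 (0.17), Myadm (0.19), Rnd3 (0.21), the integrin chain gene Itgb2 (0.21) and Gpr155 (0.23).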

How the data were processed

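Total RNA of sorted bone marrow cells was hybridized to 15 Affymetrix arrays in 6 groups. The values are deposited as intensity on a linear scale, 1 signal per probe set, made with Affymetrix Expression Console and RMA, per the submitters' processing notes, with versions and settings not given in the sources used here. The values reached 21042 and were never negative, so log2 was taken first. Of 28853 probe sets, 21789 had a single gene symbol in the platform annotation, and 1 per gene (the highest mean) gave 19938 genes. The number of arrays limits the precision.

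Comparisons used limma 3.58.1 in R 4.3.3: 6 group means on the 12 arrays of a common scale, empirical Bayes without trend, two-sided, p-values adjusted by Benjamini and Hochberg's method over all genes in each of 10 comparisons, and a threshold of 0.05. There were 6 residual degrees of freedom. The 8 genes, the 14 lists, the choice of arrays and the alternatives were chosen with earlier results of these data known. The genes named were the 8 members, the 2 targeted genes, up to 4 called genes per list and comparison with the largest difference, and the 5 genes most like each member whose group means span at least 1 log2 unit. Other genes given with values (Kit, Flt3, Zbtb46, Xist, Ifnar1, Ifnar2, Spi1, and Spib, Stat2, Batf3, Tcf3, Etv6 and others outside those limits) were chosen after their values were seen. Of the list members, 18 were not measured. Promoters are from RefSeq (GRCm38.p6). Alternatives covered the arrays used, blocks, scaling, filters and each array left out.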

Additional observations from a re-analysis of the deposited data

How the results depend on the processing

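Of the 14 called differences of single members, 14 kept their direction and call with 75th-percentile centring and with quantile normalization. So did 14 on all 15 arrays with a fixed term for the 3 on another scale. The 14 calls were also kept with dim genes left out (14399 genes tested), all single-symbol probe sets, X and Y genes left out, or the array set as a block. These last settings could change a member's adjusted p but not its estimate, so its direction was fixed in advance. The array sets were also defined from these same signals. With an intensity trend 13 kept the call, and with the replicate block on 12 arrays 13 did; the exception in both was Irf2 in Id2 KO (0.57, adjusted p = 0.0681, and 0.65, adjusted p = 0.0503). With all 15 arrays and no term for scale, and with the replicate block on all 15 arrays, 0 of 14 passed: the counts of called members became 0 for the stage difference in Batf3 KO, Id2 KO and WT and 0 for Id2 KO against WT in Zbtb46-GFP+ cells. In those fits the Zbtb46-GFP+ groups hold arrays of 2 scales. There Irf9 in WT turned to -0.50 without a term and -1.07 with the replicate block, and with the replicate block Irf5 in Batf3 KO turned to -0.25, Irf5 in Id2 KO to -0.58 and Irf7 in Id2 KO to -0.05. With 1 array left out, 10 of the 14 calls were always kept, and the count for Id2 KO against WT in Zbtb46-GFP+ cells ran from 0 to 1. For each call the left-out array was 1 of the 4 in the 2 groups compared. Leaving out arrays of the other groups, which share the estimate of spread, was not counted. These fits let a lone array vary like the other groups. Calls gained were Irf9 in Batf3 KO with the array set (adjusted p = 0.0316) or quantile normalization (0.0294), Irf9 in Id2 KO with these (0.0166 and 0.0224) or the replicate block (0.0434), and the Irf5 interaction with Id2 KO under the array set, where the count became 1 (-0.72, adjusted p = 0.0421); the cause of these gains was not tested. Over all genes, calls for the stage difference in WT numbered 2212, against 4829 with the array set as a block and 1 on all 15 arrays without a term. The 75th-percentile centring moved the median of all genes by 0.13 in the WT stage difference and by -0.11 in Id2 KO against WT in Zbtb46-GFP+ cells.

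Replicate numbers deviated together between CDP groups (residual correlations 0.53 to 0.68), and not in all Zbtb46-GFP+ groups (-0.55 for Batf3 KO with WT, -0.42 for Id2 KO with WT and 0.48 between the knockouts), so the numbers were not taken as pairs, and the block changed no member's call in CDPs. The crossed pairing of Zbtb46-GFP+ arrays is the array set block, with 250 genes called in Batf3 KO against WT, where 67 were called without it, and 1212 in Id2 KO, where 361 were.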
